A study of Mus musculus with 67 samples.

Results

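Protein kinases add phosphate groups to other proteins, protein phosphatases remove them, and the lipid kinases phosphorylate membrane phosphoinositides. On the cortex arrays, 68 genes carried a symbol of one of these families, of 3905 genes that a spot named alone, and 79 spots measured them. Members were chosen by the start of the gene symbol (Mapk, Map2k, Map3k, Map4k, Camk, Csnk, Prka, Prkc, Pik3, Pip4k, Pip5k, Mark with a digit, Stk, Ppp with a digit, Ptpn, Ptpr and Dusp), and spots of one gene were averaged. There were 37 genes with a kinase symbol and 31 with a phosphatase symbol, and the groups are described apart. No measured value enters that rule.

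The symbol start also took in proteins that are no enzymes, such as the regulatory subunits Prkag1, Prkar1a, Pik3r1 and Ppp2r1a, the scaffold Mapk8ip2, the kinase-interacting protein Mapk1ip1l and Prkcsh, a subunit of glucosidase II in the endoplasmic reticulum. No gene with a Camk or a Pip4k symbol was among the 68, so the calmodulin-dependent kinases, which are abundant at cortical synapses, are not described. Calcineurin was represented by 1 gene, Ppp3cb.

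Cortical RNA of 67 C57BL/6 mice was profiled, each mouse on an array of its own with 8448 cDNA spots on a filter, hybridised with cDNA labelled radioactively from total RNA. Mice fed ad libitum (AL) were juveniles of 17 to 44 days or were near 6, 16 or 24 months old (169 to 194, 472 to 499 and 673 to 743 days with the restricted mice included), with 5 males and 5 females at each age. Mice under caloric restriction (CR) were 6, 16 or 24 months old, with 4, 5 and 3 males and 5 females at each age. The 3 CR males of 24 months were all 673 days old and the AL males of that age 714 to 743 days, so diet and age cannot be told apart in these males, while the females were 703 to 743 days under CR and 704 to 733 under AL. CR mice were stepped down from full feed after week 13, through 90% and 75%, to 60% of it. No mouse carried a transgene, and the groups differ by age, sex and feed. The description of 1 array, a 24-month AL male, names another mouse than its title, and the title was followed.

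In cortex, MAP kinase cascades relay growth and stress signals to the nucleus, and the JNK and p38 arms answer mainly to stress. Protein kinase C and the phosphoinositide kinases act in synaptic and growth factor signalling, while LKB1 (Stk11) activates both AMPK and the MARK kinases, which phosphorylate tau and other microtubule-associated proteins. PP1, PP2A and calcineurin are the main serine and threonine phosphatases of neurons, tyrosine phosphatases oppose tyrosine kinases, and dual specificity phosphatases switch off MAP kinases.

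Values are z, the distance of a spot from the mean of its array in SDs of that array, so a difference between groups is in SDs of an array and is not a fold change. Levels of different cDNA spots cannot be set against each other as amounts of transcript. A gene was tested where the mean z of a spot over the 67 arrays was above 0, which held for 1826 of the 3905 genes (46.8%). Among the kinases 19 of 37 were tested (51.4%) and among the phosphatases 13 of 31 (41.9%). The share tested was 6 of 12 in the MAP kinase cascade, 7 of 10 among MARK and STK kinases, 3 of 6 lipid kinases, 1 of 4 casein kinases, 1 of 3 PKC symbols and 1 of 2 PKA and AMPK genes. It was 4 of 9 for PP1, 1 of 6 for PP2A, 1 of 1 for calcineurin, 4 of 7 for the PP4 and PP6 genes, both Ptpn genes, none of the 2 Ptpr genes and 1 of 4 Dusp genes.

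Among the kinases the mean z over the 67 arrays was 2.24 for Stk11, 1.73 for Stk36, a fused-type kinase, 1.10 for Prkcz, the atypical PKC zeta, 1.03 for Mapk1ip1l and 0.663 for Mark3. Among the phosphatases it was 1.31 for Ppp4c, the catalytic subunit of PP4, 1.20 for its regulatory subunit Ppp4r2, 1.18 for the PP1 inhibitor Ppp1r14b, 1.01 for Ppp3cb and 0.917 for Ppp1r18, an actin-binding PP1 subunit also called phostensin. The lowest mean z values were those of Pik3r4 (-2.18), Stk4 (-1.86) and Stk40 (-1.56) among the kinases, and of Ppp2r2d (-1.17), Dusp19 (-1.14) and Ppp1r32 (-1.12) among the phosphatases. These 6 genes were below the mean z needed for the test.

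Several spots measured 10 of the 68 genes, and they seldom moved together. Over 12 spot pairs the median correlation across the 67 arrays, after group means and array set were removed, was -0.00946. Both Stk11 spots followed each other (r = 0.803), as did both spots of Ppp1ca, the alpha catalytic subunit of PP1 (r = 0.555), while the other pairs ran from -0.1998 to 0.139. The spots of Mapk8, the JNK1 kinase, had mean z values of -1.26 and 0.162, those of Ptpn21, a tyrosine phosphatase with a FERM domain, of -1.50, -1.20 and 0.0225, and those of Map4k5, an upstream kinase of the JNK arm, of -0.870 and 0.222. These are the genes whose spots lay furthest apart, and only the spot above 0 was tested for each of them. The pairs share the arrays and the RNA, so these correlations describe the spots and carry no test.

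**Figure D1:**
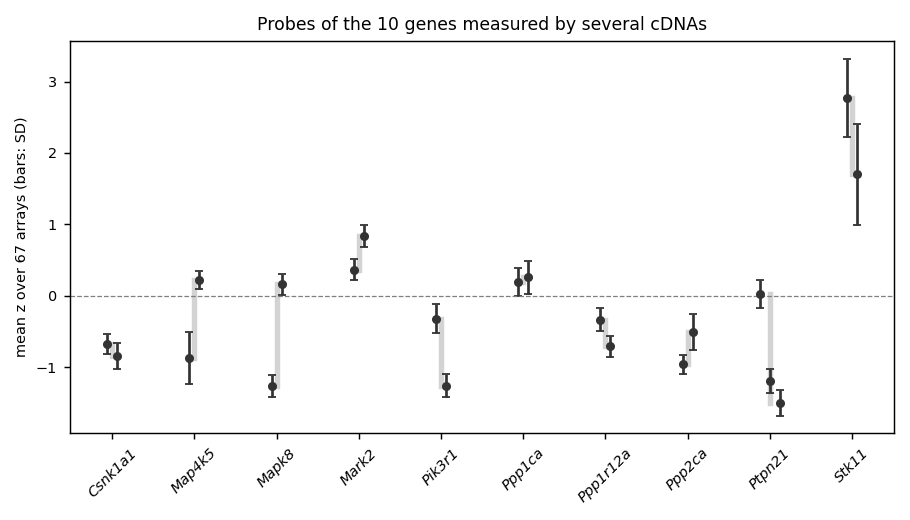
Mean z (vertical axis) of each spot of the 10 kinase and phosphatase genes measured by several cDNAs, as points with the SD over 67 arrays. The spots of Mapk8 lie far apart (-1.26 and 0.162) and those of Ppp1ca close together (0.194 and 0.259).

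The arrays fell into a first set (running numbers 1 to 45) and a second set (46 to 67) that differed for most genes, and every group of mice had arrays in both. By limma, 22 of the 32 tested members differed between the sets at an adjusted p under 0.05, beside 77.5% of all tested genes. Stk11 was lower in the second set by -1.26 ± 0.0483 (SE), Stk36 by -1.16 ± 0.0437 and Ppp1r14b by -1.11 ± 0.0330. Ppp1r18 was higher by 0.826 ± 0.0499, Mapkapk5, a kinase downstream of p38, by 0.694 ± 0.0498 and Map2k3, the kinase that activates p38, by 0.572 ± 0.0323. For Stk36 the set accounted for 91.0% of the variance over all arrays and for Ppp1r14b for 95.3%, and the spots of both lay in the same of 22 position classes (by running spot number), whose mean shift over all spots was -1.0. Map2k3 had a mean z of -0.0889 in the first set and 0.483 in the second, so it reached the test through the second set only, and so did Pip5k1c (-0.116 and 0.277). In Pik3c2g, Prkag1, Ptpn21 and Stk24 the mean z was above 0 in the first set and below it in the second (-0.00182, -0.0555, -0.171 and -0.0750). The main fit therefore held the set as a term, and levels below are z with the fitted set shift removed from arrays 46 to 67. A single array, of a 24-month AL female, correlated less with the others (median 0.783) than the next lowest array (0.885).

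**Figure D2:**
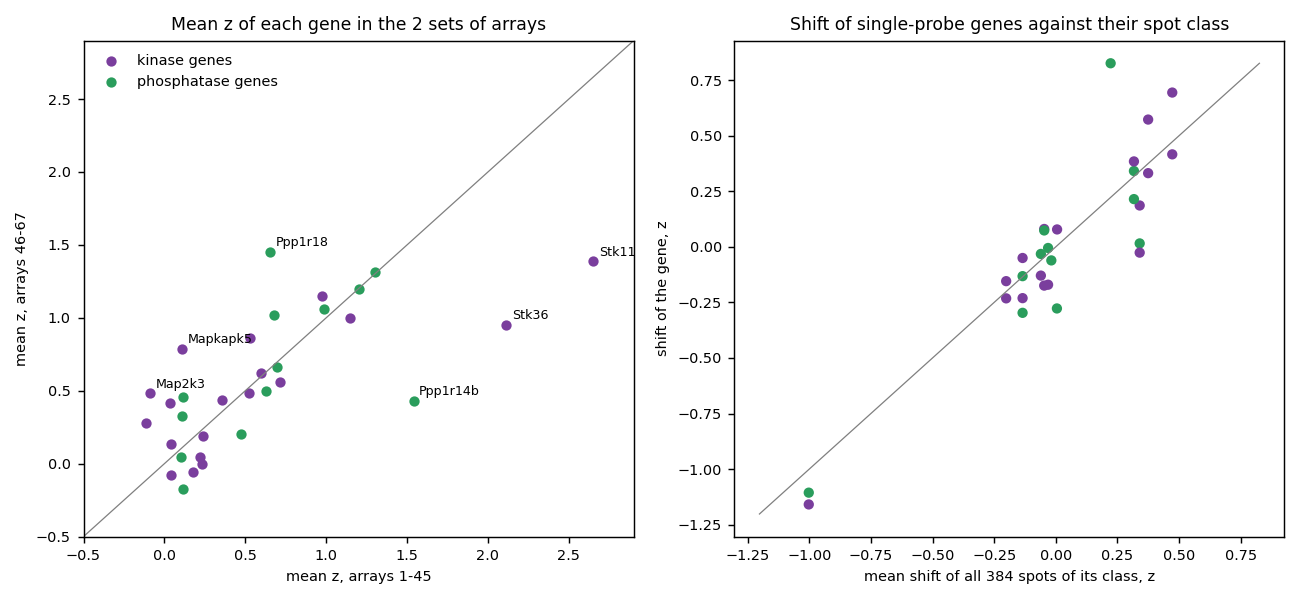
Left, mean z of each of 32 genes on arrays 46 to 67 (vertical) against arrays 1 to 45 (horizontal), with the line of equality. Right, the shift between the sets of single-spot genes against the mean shift of all spots of their position class, with the line of equality. Stk36 and Ppp1r14b lie low left in the right panel (-1.16 and -1.11), and Ppp1r18 (0.826) lies furthest above the line.

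No kinase or phosphatase gene passed an adjusted p of 0.05 by limma in any of 9 comparisons between ages, diets and sexes or in 3 interaction tests, and the background was 0% (0 of 1826 genes) in each. At an unadjusted p under 0.05, 13 of the 32 members came up in at least 1 of the 9 comparisons, 9 kinases (Csnk2a2, Map2k3, Mark3, Pik3c2g, Pik3cd, Pip5k1c, Prkag1, Stk10 and Stk17b) and 4 phosphatases (Ppp1ca, Ppp1r18, Ppp2r3c and Ptpn14), beside 37.1% of all tested genes. These 13 genes gave 25 differences. In 16 of the 25 the unadjusted p was 0.05 or above when some single array was left out. The 9 others were Mark3 and Map2k3 from 16 to 24 months and between the diets at 24 months, Map2k3 from 6 to 24 months under AL, Pik3c2g from 16 to 24 months and between the diets at 24 months, Pik3cd from the juveniles to 6 months and Stk10 from 6 to 24 months under CR. The 10 other kinases differed by between -0.0895 and 0.108 and the 9 other phosphatases by between -0.112 and 0.108 over the 9 comparisons. None of the differences below is therefore called a change. The median half-width of the 95% confidence interval of a member's difference lay between 0.0667 and 0.128 over the 9 comparisons, and the number of arrays sets this precision. In whole cortex, fewer cells of a type and less RNA per cell cannot be told apart.

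**Figure D3:**
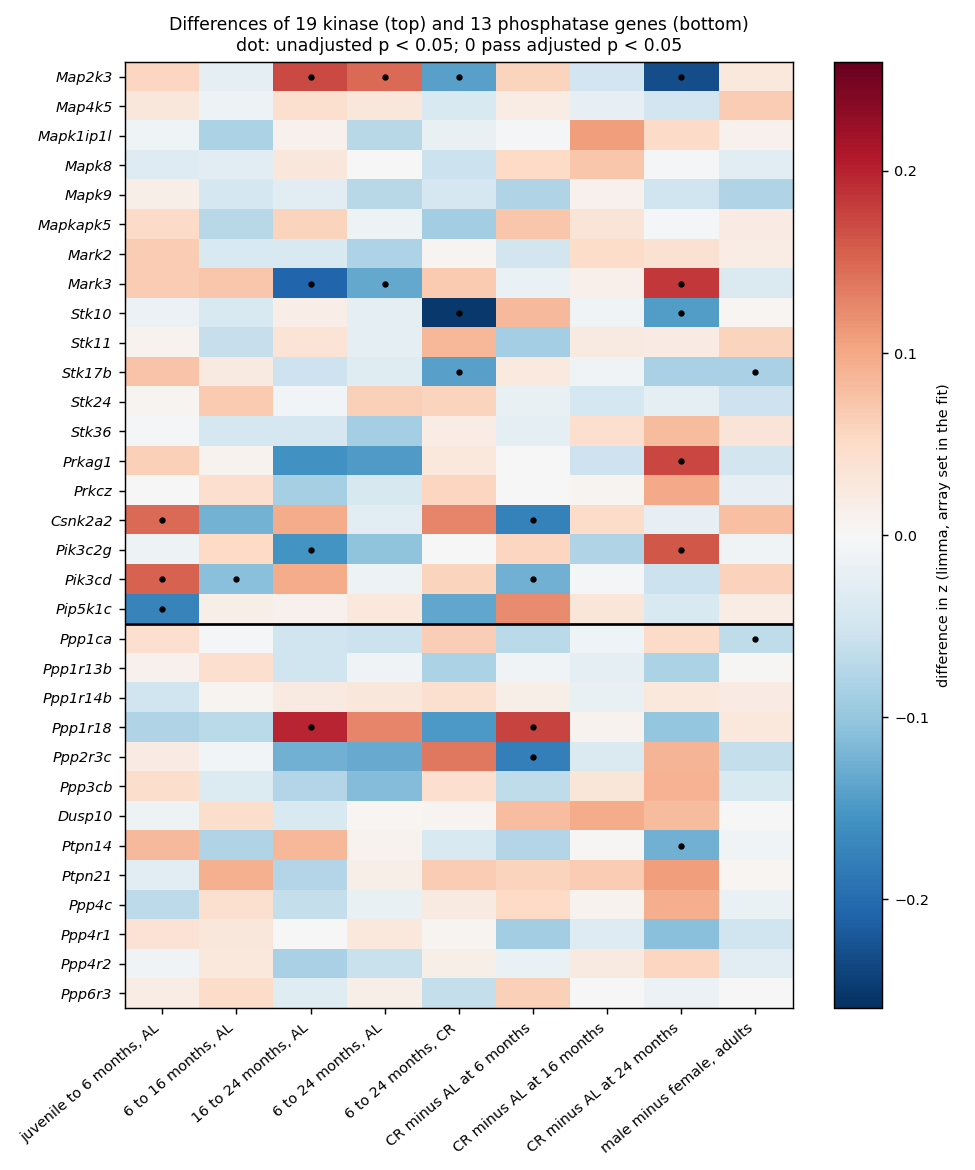
Limma differences in z (colour) of 19 kinase genes (above the line) and 13 phosphatase genes (below it) in 9 comparisons (columns), with a dot where the unadjusted p was under 0.05. The darkest cells are Stk10 from 6 to 24 months under CR (-0.251), Map2k3 for CR minus AL at 24 months (-0.230) and Mark3 from 16 to 24 months (-0.206).

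The first question was how the genes differ with age under AL feeding. From the juveniles to 6 months, 3 of 19 kinases and 0 of 13 phosphatases had an unadjusted p under 0.05, beside 4.16% of all tested genes. The median difference was 0.0150 for the kinases, 0.0119 for the phosphatases and 0.00556 for all tested genes. All 3 kinases are enzymes of phosphoinositides or casein kinase 2.

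Pik3cd, the p110 delta catalytic subunit of PI 3-kinase, ranged from 0.270 to 0.650 in the juveniles (median 0.444, n = 10) and from 0.459 to 0.880 at 6 months (median 0.595, n = 10). All 10 mice of 6 months lay above the juvenile median, though the groups overlapped, and the difference was 0.154 ± 0.0542 (SE, limma, adjusted p = 0.999). Csnk2a2, the alpha prime catalytic subunit of casein kinase 2, ranged from -0.180 to 0.230 in the juveniles (median -0.0400) and from -0.00802 to 0.310 at 6 months (median 0.122). Again all 10 mice of 6 months lay above the juvenile median, and the difference was 0.148 ± 0.0674 (limma, adjusted p = 0.999). On the second set of arrays alone these differences were 0.0275 for Pik3cd and 0.0425 for Csnk2a2. Pip5k1c, which makes the phosphoinositide PIP2 at synapses, had 1 juvenile male at 0.880 while the other juveniles did not exceed 0.100, and the mice of 6 months lay between -0.336 and -0.0400. The difference of -0.174 ± 0.0760 rested on that male, since it was -0.0733 with an unadjusted p above 0.05 without it. The phosphatases with the smallest p were Ptpn14 (0.0852 ± 0.0533), Ppp4c (-0.0675 ± 0.0552) and Ppp1r18 (-0.0786 ± 0.0844), none under 0.05.

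From 6 to 16 months under AL, 1 kinase and 0 phosphatases had an unadjusted p under 0.05, beside 2.68% of all tested genes. That kinase was Pik3cd, which ranged from 0.260 to 0.629 at 16 months (median 0.524) and differed by -0.109 ± 0.0542 (SE, limma, adjusted p = 0.996) from 6 months. Without 1 male of 6 months, whose value was 0.880, the difference was -0.0804 and its unadjusted p above 0.05, and on the second set of arrays alone it was -0.0200. The median difference was -0.0275 for the kinases and 0.0265 for the phosphatases, beside -0.00192 for all tested genes.

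From 16 to 24 months under AL, 3 kinases and 1 phosphatase had an unadjusted p under 0.05, beside 14.1% of all tested genes, and the kinase share (3 of 19) was near that background. Mark3, a microtubule affinity-regulating kinase, ranged from 0.570 to 0.900 at 16 months (median 0.815, n = 10) and from 0.431 to 0.760 at 24 months (median 0.585, n = 10). It was lower at 24 months, with 7 of 10 mice of 16 months above every mouse of 24 months, and differed by -0.206 ± 0.0527 (SE, limma, adjusted p = 0.245). The difference was -0.183 on the first set of arrays alone and -0.240 on the second alone. Mark2, the other MARK gene, differed by less than its error over the same interval on both of its spots (-0.0410 ± 0.0588 and -0.0390 ± 0.0526).

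Map2k3 ranged from -0.290 to 0.0900 at 16 months (median -0.121) and from -0.172 to 0.398 at 24 months (median 0.0488). The 24-month mice lay higher, 9 of 10 above the 16-month median, and the difference was 0.171 ± 0.0545 (SE, limma, adjusted p = 0.245). With arrays split in 5 blocks of running number, it was 0.0925. Pik3c2g, a class II PI 3-kinase, ranged from 0.102 to 0.420 at 16 months (median 0.295) and from -0.298 to 0.330 at 24 months (median 0.140), a difference of -0.155 ± 0.0524 (limma, adjusted p = 0.245). It was -0.104 without the male at -0.298.

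Ppp1r18 was the phosphatase gene with the smallest p in this interval. It ranged from 0.150 to 0.770 at 16 months (median 0.545) and from 0.475 to 1.01 at 24 months (median 0.745), and 5 of the 10 older mice lay above all the younger ones. The difference was 0.198 ± 0.0842 (SE, limma, adjusted p = 0.278). The difference was below 0 for 10 of the 13 phosphatases and for 1020 of all 1826 tested genes, with medians of -0.0515 and -0.0120, and none of those 10 phosphatases had an unadjusted p under 0.05. The kinases had a median difference of 0.0110, with 10 higher and 9 lower.

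From 6 to 24 months under AL, 2 kinases and 0 phosphatases had an unadjusted p under 0.05, beside 6.90% of all tested genes. They were Map2k3, with a difference of 0.148 ± 0.0546 (SE, limma, adjusted p = 0.517), and Mark3, with -0.134 ± 0.0528 (limma, adjusted p = 0.517). In both genes 9 of 10 mice of the higher group lay above the median of the lower one. This comparison uses the same 24-month mice as the one before and is no second set of data.

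Cell type markers were read beside these values. Of the neuron markers, Snap25, Tubb3, Stmn3 and Uchl1 were tested. From 16 to 24 months under AL the differences of 3 of the 4 were below 0, and Stmn3 (-0.213) and Uchl1 (-0.118) had an unadjusted p under 0.05. In the other direction, the astrocyte marker Glul (0.124) and the oligodendrocyte gene Fth1 (0.138) also did. The other astrocyte markers tested, Aldoc (-0.081) and Cst3 (-0.007), and the oligodendrocyte gene Car2 (-0.031) did not, and lay below 0. From 6 to 24 months under AL, Stmn3 (-0.201), Glul (0.159) and Fth1 (0.165) had an unadjusted p under 0.05. Between the diets at 24 months Stmn3 (0.186) and Glul (-0.146) did, with Fth1 at -0.104. In neither comparison, both with the same 24-month AL mice as the one from 16 to 24 months, did Aldoc, Cst3 or Car2. At 6 months Cst3 (-0.158) and Tubb3 (-0.146) did between the diets, and Cst3 also from 6 to 24 months under CR (0.119) and between the sexes (-0.0758). Pecam1, the endothelial marker tested, had no unadjusted p under 0.05 in the 9 comparisons. By limma no marker passed an adjusted p of 0.05.

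The mean of the 4 neuron markers ranged from 0.980 to 1.26 over the AL mice of 16 months, from 0.625 to 1.20 over those of 24 months and from 0.980 to 1.20 over the CR mice of 24 months. The mean of the 3 astrocyte markers (Aldoc, Glul and Cst3) ranged from 0.746 to 0.939, from 0.747 to 0.953 and from 0.690 to 0.870 in these groups, and that of the 2 oligodendrocyte genes (Fth1 and Car2) from 0.915 to 1.13, from 0.950 to 1.23 and from 1.01 to 1.15. The part of these cell types in the differences of the kinases and phosphatases was not tested. No marker of microglia, blood, striatum or of excitatory or inhibitory neurons was tested.

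**Figure D4:**
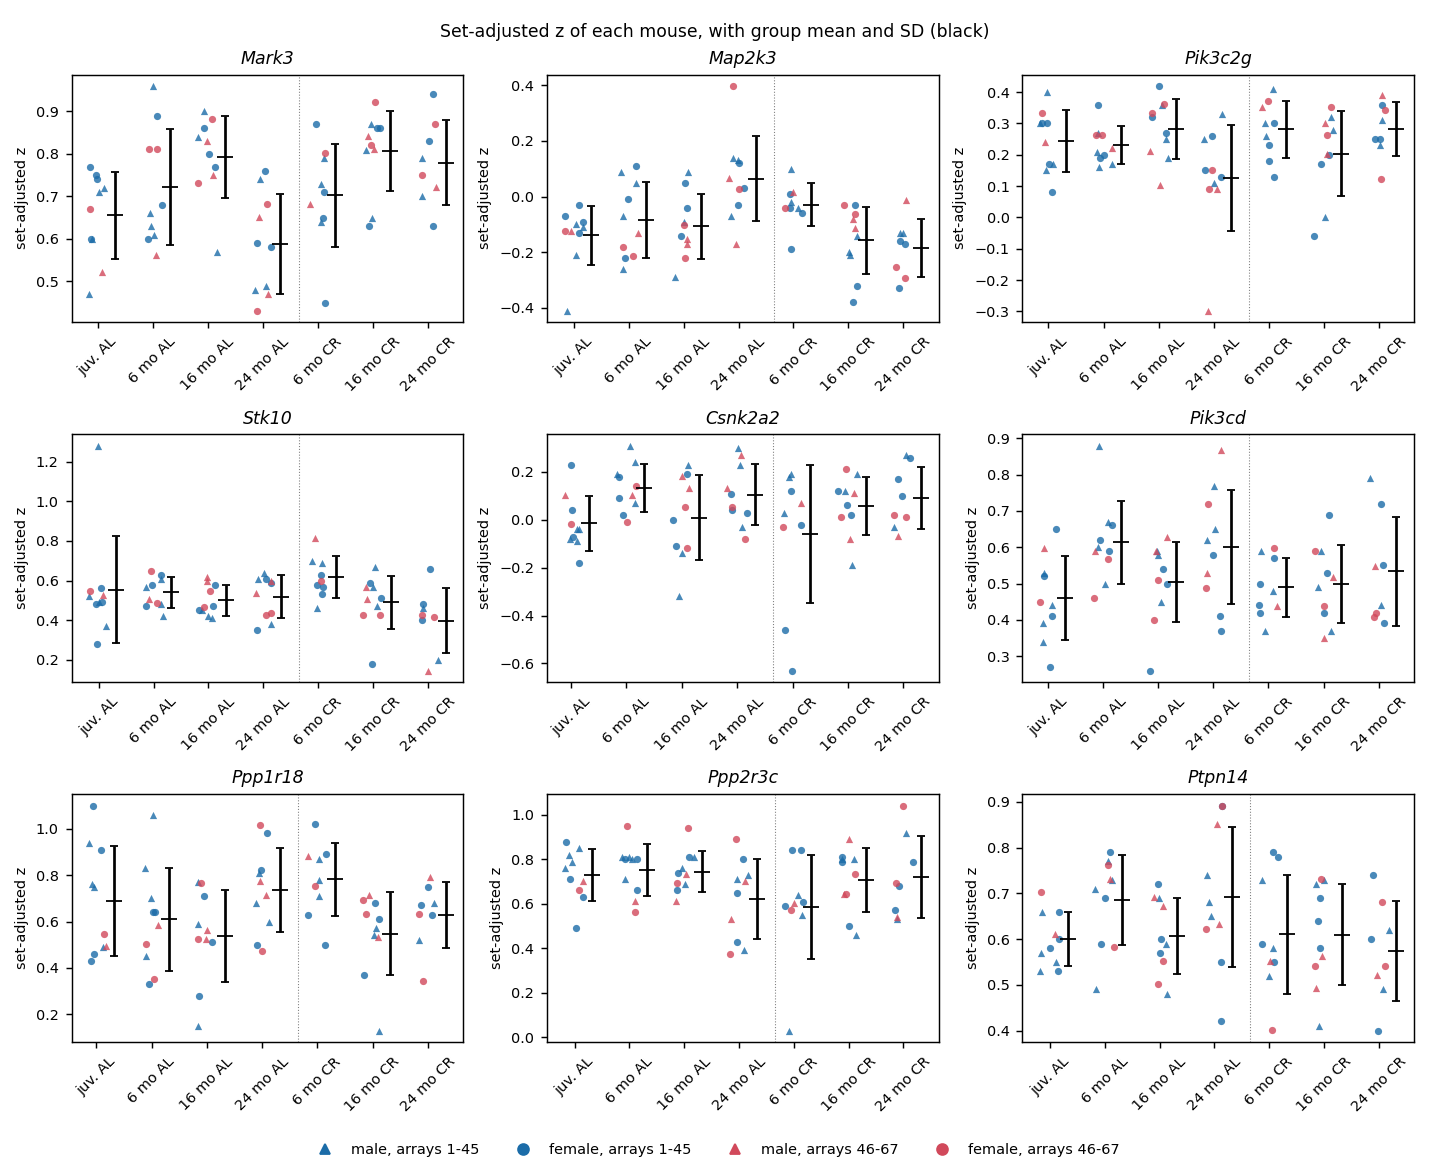
Set-adjusted z (vertical axis) of each mouse for 6 kinase and 3 phosphatase genes in 7 groups by age and diet, triangles for males and circles for females, blue for arrays 1 to 45 and red for 46 to 67, with group mean and SD in black. Mark3 has its lowest median in 24-month AL mice (0.585) and Map2k3 its highest there (0.0488), and the groups overlap.

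The second question was how CR mice differ from AL mice of the same age. At 6 months 2 kinases and 2 phosphatases had an unadjusted p under 0.05, beside 3.83% of all tested genes, and the median differences (0.000923 for kinases, -0.00868 for phosphatases) lay near that of all genes (-0.00712). Csnk2a2 ranged from -0.630 to 0.190 under CR (median 0.0300, n = 9), where 2 females lay at or below -0.460, and differed by -0.176 ± 0.0694 (SE, limma, adjusted p = 0.993) from AL. Pik3cd ranged from 0.370 to 0.599 (median 0.480) and differed by -0.126 ± 0.0559 (limma, adjusted p = 0.993). On the second set of arrays alone the differences were -0.0625 for Csnk2a2 and -0.0325 for Pik3cd. Both kinases also came up from the juveniles to 6 months, and the 6-month AL mice enter both comparisons.

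Among the phosphatases at 6 months, Ppp2r3c, a regulatory subunit of PP2A, ranged from 0.562 to 0.952 under AL (median 0.800) and from 0.0300 to 0.840 under CR (median 0.602). The difference was -0.179 ± 0.0711 (SE, limma, adjusted p = 0.993), and -0.108, with an unadjusted p above 0.05, without the CR male at 0.0300. Ppp1r18 ranged from 0.330 to 1.06 under AL and from 0.50 to 1.02 under CR, a difference of 0.176 ± 0.0869 (limma, adjusted p = 0.993) with no CR mouse above the highest AL mouse. It was 0.114 with no set term in the fit.

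At 16 months no kinase or phosphatase had an unadjusted p under 0.05, beside 0.931% of all tested genes. The smallest p was that of Mapk1ip1l, whose difference was 0.108 and did not reach an unadjusted p of 0.05 by limma. Kinases differed by between -0.0790 and 0.108 and phosphatases by between -0.0380 and 0.0970.

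At 24 months 5 kinases and 1 phosphatase had an unadjusted p under 0.05, beside 11.0% of all tested genes (5 of 19 kinases and 1 of 13 phosphatases). With each array left out in turn the counts ran from 3 to 6 kinases and from 0 to 3 phosphatases. Whether the share of either class differs from that background was not tested. Of the markers given above, Stmn3 and Glul had an unadjusted p under 0.05 in the same comparison. The other neuron markers did not (Snap25 0.128, Uchl1 0.0222 and Tubb3 -0.0419), nor did the other astrocyte markers (Aldoc 0.00460 and Cst3 -0.0687). Map2k3 had the smallest p of all the members' comparisons between diets. It ranged from -0.172 to 0.398 in AL mice (median 0.0488, n = 10) and from -0.330 to -0.0123 in CR mice (median -0.165, n = 8). In 7 of 10 AL mice it was above every CR mouse, and the difference was -0.230 ± 0.0589 (SE, limma, adjusted p = 0.0855). It was -0.228 on the first set alone, -0.222 on the second alone, and -0.129 with 5 blocks of running number. The adjusted p was 0.0411, 0.0410 and 0.0463 by limma without 24-month AL male replicate 4, female replicate 3 or female replicate 4, so Map2k3 was called in those 3 fits. Other genes passed in those fits as well, and their share of all tested genes is not given here. Among the 24-month females, whose ages overlap, Map2k3 ranged from -0.0300 to 0.398 under AL and from -0.330 to -0.160 under CR. These ranges did not overlap, while those of all 24-month AL and CR mice did. Females were taken alone after the data were seen. How many of all tested genes also separate the female groups is not given here, so the separation is no test. The difference in females was -0.350 ± 0.0771 (SE, limma, adjusted p = 0.0477, 5 mice a group). Among the males, where the CR mice were younger, it was -0.110 ± 0.0891 (limma, adjusted p = 0.989). Whether the sexes differ in this at 24 months was not tested.

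Mark3 ranged from 0.630 to 0.940 in CR mice (median 0.770), and all 8 lay above the AL median of 0.585. The difference was 0.183 ± 0.0569 (SE, limma, adjusted p = 0.148). Pik3c2g ranged from 0.122 to 0.392 in CR mice (median 0.280) and differed by 0.161 ± 0.0566 (limma, adjusted p = 0.226). It differed by 0.0733 on the first set alone and by 0.302 on the second. Among females alone the differences were 0.196 for Mark3 and 0.108 for Pik3c2g, and among males alone 0.171 and 0.214. Map2k3, Mark3 and Pik3c2g are the kinases named from 16 to 24 months, in the opposite direction, and the 24-month AL mice enter both comparisons.

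Stk10, which phosphorylates ezrin, radixin and moesin, ranged from 0.350 to 0.640 in AL mice (median 0.563) and from 0.146 to 0.660 in CR mice (median 0.421), a difference of -0.145 ± 0.0684 (SE, limma, adjusted p = 0.430). It was -0.00600 among females alone and -0.284 among males alone, where age differs with diet. Prkag1, the gamma 1 subunit of the energy sensor AMPK, differed by 0.174 ± 0.0869 (limma, adjusted p = 0.453), but by 0.0807 without the 24-month AL female at -0.759, the array that correlated least with the others. Ptpn14, a tyrosine phosphatase with a FERM domain, was the only phosphatase gene, with a range of 0.420 to 0.892 in AL mice (median 0.665) and of 0.400 to 0.740 in CR mice (median 0.571). Its difference was -0.124 ± 0.0575 (limma, adjusted p = 0.418). The median difference of the 13 phosphatases was 0.0506 and that of the 19 kinases -0.00582, beside 0.00944 for all tested genes.

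Under CR from 6 to 24 months, 3 kinases and 0 phosphatases had an unadjusted p under 0.05, beside 5.20% of all tested genes. Stk10 ranged from 0.460 to 0.816 at 6 months (median 0.596, n = 9), and all 9 mice lay above the median of the 8 mice of 24 months. The difference was -0.251 ± 0.0704 (SE, limma, adjusted p = 0.467), -0.175 on the first set and -0.422 on the second, and -0.105 among females alone and -0.398 among males alone. With array weights the adjusted p by limma was 0.00174, and without juvenile AL male replicate 1, whose Stk10 value was 1.28, it was 0.0327. The share of all tested genes that passed in those fits is not given here. Under AL Stk10 ranged from 0.420 to 0.646 at 6 months and from 0.350 to 0.640 at 24 months.

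Map2k3 differed by -0.141 ± 0.0606 (SE, limma, adjusted p = 0.861) over the same interval under CR, where it ranged from -0.190 to 0.100 at 6 months. Stk17b, a kinase of the death-associated family, ranged from -0.330 to 0.280 at 6 months and from -0.290 to 0.146 at 24 months and differed by -0.142 ± 0.0655 (limma, adjusted p = 0.861). Without 1 CR male of 6 months its unadjusted p was above 0.05. The median difference under CR was 0.00128 for the kinases and 0.0154 for the phosphatases.

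**Figure D5:**
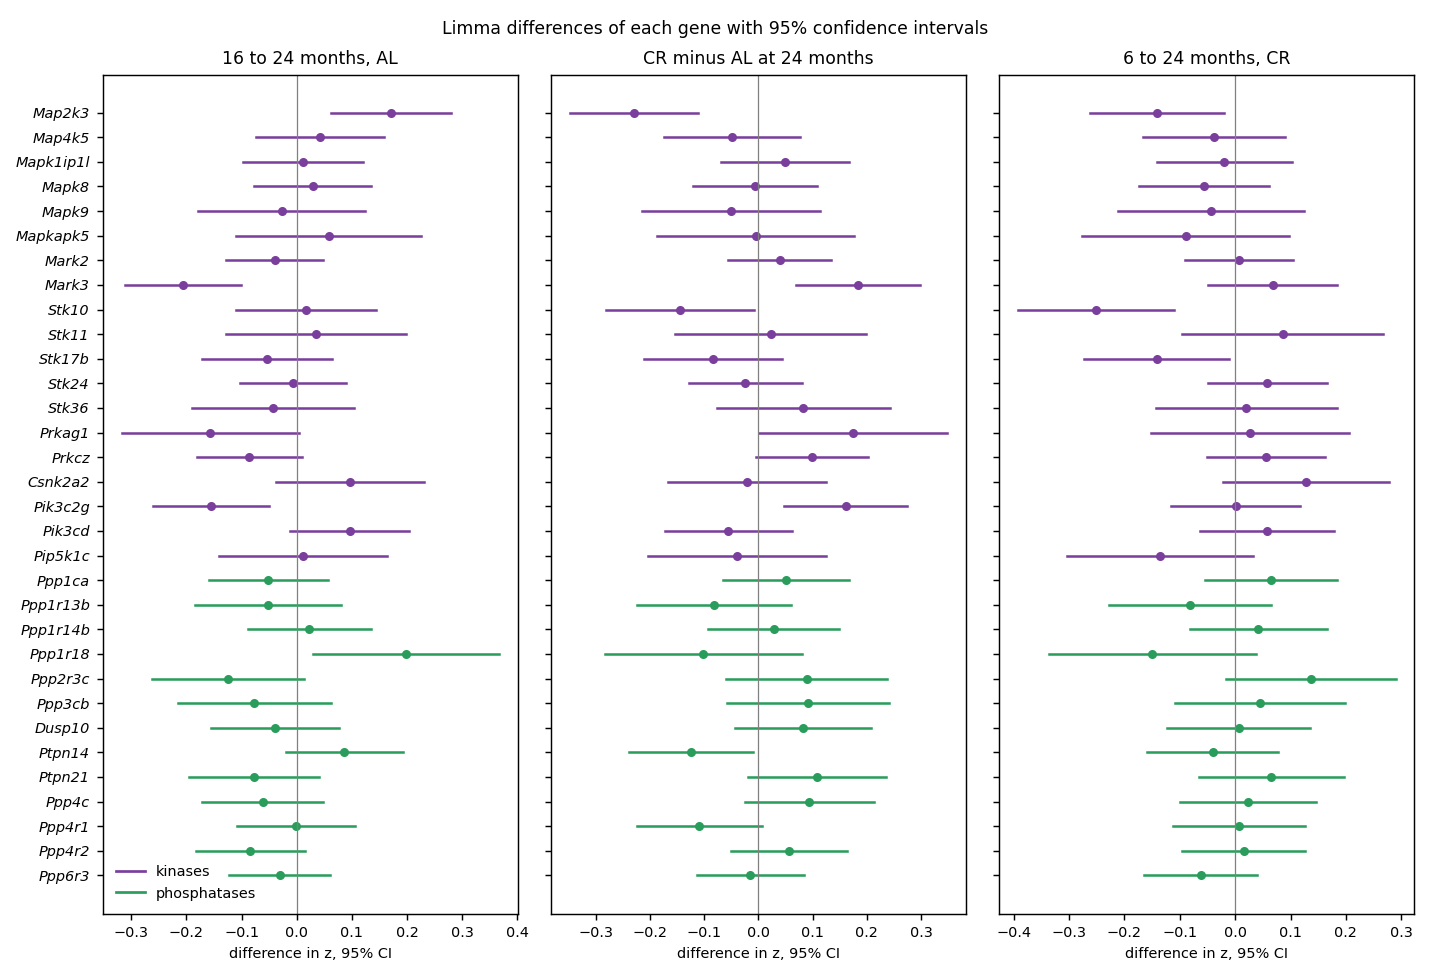
Limma differences in z (horizontal axis, points) with 95% confidence intervals (lines) of 32 genes from 16 to 24 months under AL, for CR minus AL at 24 months and from 6 to 24 months under CR, kinases in purple and phosphatases in green. The intervals of Mark3 (-0.206) and Map2k3 (0.171) lie clear of 0 in the left panel and on the other side of 0 in the middle one (0.183 and -0.230), where the same 24-month AL mice enter.

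The third question was whether the age differences depended on diet or sex and whether the sexes differed. For the interaction of age and diet, 3 kinases and 1 phosphatase had an unadjusted p under 0.05, beside 5.91% of all tested genes. They were Map2k3 (moderated F in limma, adjusted p = 0.50), Pik3c2g (0.613), Mark3 (0.768) and Ppp2r3c (0.768). For age and sex it was Stk24, an MST3 kinase, alone (adjusted p = 0.999), beside 1.70% of genes, and for diet and sex Pik3c2g and Dusp10, which inactivates p38 and JNK (adjusted p = 0.980 for both), beside 4.22%.

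Between 27 male and 30 female adults, 1 kinase and 1 phosphatase had an unadjusted p under 0.05, beside 9.86% of all tested genes. Stk17b ranged from -0.330 to 0.270 in males (median -0.0340) and from -0.290 to 0.280 in females (median 0.0980), a difference of -0.0836 ± 0.0353 (SE, limma, adjusted p = 0.405). Ppp1ca ranged from -0.205 to 0.435 in males (median 0.0450) and from -0.0700 to 0.313 in females (median 0.140), a difference of -0.0662 ± 0.0322 (limma, adjusted p = 0.489). The male mean of Ppp1ca was below the female mean in 4 of the 6 adult groups by age and diet, and that of Stk17b in 5 of 6.

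The rule in the study's methods asks for a difference beyond 1.5 SDs of all genes' differences and 2 unadjusted tests. Those tests held no array set term. By this rule the kinases below passed and no phosphatase did, and whether the classes differ in this was not tested. From the juveniles to 6 months Csnk2a2 and Pik3cd passed, beside 1.42% of all tested genes. Mark3 passed from 16 to 24 months (1.42%), from 6 to 24 months under AL (0.821%) and between the diets at 24 months (2.30%), and Stk10 from 6 to 24 months under CR (0.657%). No member passed in the other comparisons, where the rule took 0.548% of genes from 6 to 16 months, 3.07% and 0.602% for CR minus AL at 6 and 16 months and 2.35% between the sexes. After Benjamini-Hochberg adjustment of that rule's two-group p, 0 genes passed in any comparison.

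Of 85 genes of the pathways around the members, 26 had a spot of their own and 15 were tested (Akt1, Braf, Grb2, Shc1, Calm2, Akap1, Ywhah, Ywhaq, Pdpk1, Nlk, Abl1, Jak2, Plcg1, Acp1 and Marcksl1). By limma none passed an adjusted p of 0.05 in the 9 comparisons. At an unadjusted p under 0.05 the kinase Akt1 came up from the juveniles to 6 months (0.110 ± 0.0468, SE; 1 of 15, beside 4.16% of all tested genes) and Braf, a kinase that starts the ERK cascade, from 6 to 24 months under CR (-0.144 ± 0.0612; 1 of 15, beside 5.20%). The phosphatase Acp1 came up for CR minus AL at 6 months (-0.184 ± 0.0572; 1 of 15, beside 3.83%), and 4 of the 15 came up between the sexes (beside 9.86%), the adaptor Grb2 by -0.0937 ± 0.0363 among them.

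The 36 members that missed the mean z needed for the test, 18 of each class, were fitted with no filter on 3905 genes, and 0 passed an adjusted p of 0.05 by limma. From the juveniles to 6 months 1 kinase and 1 phosphatase had an unadjusted p under 0.05, beside 4.89% of all genes fitted, and from 6 to 16 months 1 and 2, beside 3.71%. From 6 to 24 months the counts were 1 and 1 under AL, beside 6.50%, and 2 and 2 under CR, beside 7.02%. For CR minus AL they were 1 and 3 at 6 months, beside 5.04%, and 1 and 2 at 16 months, beside 1.72%, and between the sexes 0 and 3, beside 8.48%. From 16 to 24 months 4 kinases and 2 phosphatases of them had an unadjusted p under 0.05, beside 12.9% of all genes fitted. Of these 4 kinases 3 were higher at 24 months and 1 was lower, Csnk1e, a casein kinase of the circadian clock, by -0.187 ± 0.0693 (SE). For CR minus AL at 24 months the counts were 3 kinases and 2 phosphatases, beside 11.4%. Csnk1e was at 0.169 ± 0.0749 and Ppp1r12a, the targeting subunit of myosin phosphatase, at 0.144 ± 0.0496. The same 24-month AL mice enter this comparison and the one from 16 to 24 months. Prkar1a, a regulatory subunit of PKA, differed by -0.152 ± 0.0640 between the diets at 24 months. These counts are of genes whose mean z was not above 0, the mean of the array. Ppp1r15a, a stress-induced PP1 subunit that dephosphorylates eIF2 alpha, differed by -0.217 ± 0.0621 for CR minus AL at 16 months (limma, adjusted p = 0.999). Its mean z was -0.446. Ppp1r15b, the other PP1 subunit for eIF2 alpha, differed the other way in that comparison, by 0.331 ± 0.130 (SE, limma, adjusted p = 0.999).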

How the data were processed

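Members and lists were chosen with earlier results of these data known. The authors deposited 1 table of z-scores (unit score): each array was z-transformed to mean 0 and SD 1. Whether intensities were logged first is not given in the sources used here. The authors' methods state no array set term. Probe names came from GEO's platform annotation: 4788 spots had 1 symbol, 212 several and 3448 none.

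Genes with a mean z above 0 were tested with limma 3.58.1 in R 4.3.3 on gene means, over 67 mice, with 14 group means and the array set as terms and Benjamini-Hochberg adjustment over 1826 genes. Set-adjusted levels subtract the fitted shift. Members were named by smallest p (3 per class and comparison), by known role, by mean z and by distance between spots (Mapkapk5, Ppp1r12a, Ppp1r15a, Ppp1r15b and the genes given as no enzymes were named outside that rule, after their values were seen). On simulated data for 16 to 24 months (1826 genes, 20 draws), 200 genes were changed by 0.25 z or more. Of the changes of 0.25 z 83.1% were found, with 7.65 false calls a draw. So many changed genes ease the adjustment, so that share does not carry over to the main fit, where no gene passed. Alternatives: no filter, no set term, each set alone, 5 blocks, quantile normalization, centred position classes, array weights, adults only, juvenile age, single spots, the methods' rule and each array left out. Contrasts for each sex alone, in the fit to all mice, were a further alternative, chosen after seeing the data. Figures used Python 3.11.15 and matplotlib 3.10.9.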

Additional observations from a re-analysis of the deposited data

Results flagged for a closer look

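In 10 of 91 group and gene combinations tested (13 genes in 7 groups by age and diet), 1 mouse stood apart from the rest of its group on the set-adjusted z scale. The rule flags about 1 in 20 by chance. The 13 genes are those with an unadjusted p under 0.05 in these same data, and they share arrays. The 10 flags therefore cannot be set against that rate. Juvenile AL male replicate 1 stood apart in 3 genes, at -0.41 for Map2k3 (the nearest juvenile was at -0.21), at 0.88 for Pip5k1c (nearest 0.10) and at 1.28 for Stk10 (nearest 0.56). Mark3 was 0.57 in 16-month AL male replicate 2, where the nearest mouse was at 0.731. Pik3c2g was -0.298 in 24-month AL male replicate 4, with the nearest at 0.0920, and Prkag1 was -0.759 in 24-month AL female replicate 5, with the nearest at -0.0400. Pik3cd was 0.88 in 6-month AL male replicate 4, with the nearest at 0.67. Among CR mice, Ppp2r3c was 0.03 in 6-month male replicate 1 (nearest 0.55), Stk17b was -0.33 in 6-month male replicate 2 (nearest 0.00604) and Stk10 was 0.18 in 16-month female replicate 2 (nearest 0.426). Ppp2r3c was the phosphatase gene in this list, and the other 9 values belong to kinase genes.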

How the results depend on the processing

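No phosphatase gene passed an adjusted p of 0.05 under any alternative run, and kinase genes passed under a few. With array weights 1 kinase passed from 6 to 24 months under CR, Stk10. By the rule in the study's methods, with no adjustment, 2 kinases passed from the juveniles to 6 months, and 1 each from 16 to 24 months, from 6 to 24 months under AL, from 6 to 24 months under CR and between the diets at 24 months. With each array left out in turn, 0 to 1 kinases passed from 6 to 24 months under CR (Stk10, without juvenile AL male replicate 1) and 0 to 1 between the diets at 24 months (Map2k3, without 24-month AL male replicate 4, female replicate 3 or female replicate 4), and 0 in the other comparisons. Of 56 named differences, the 25 with an unadjusted p under 0.05 kept their sign under every alternative run. Leaving out an array and the contrasts for each sex alone are not in the next counts. Under at least 1 other alternative, 20 of the 25 were over 1.5 times smaller. The largest fall was that of Pik3cd from the juveniles to 6 months, from 0.154 to 0.0275 on arrays 46 to 67 alone. In 23 of the 25 the unadjusted p was not under 0.05 in at least 1 of them. The others were Mark3 from 16 to 24 months and between the diets at 24 months. In males alone, Mark3 between the diets at 24 months had an unadjusted p of 0.0518 by limma. In females alone, Stk10 was -0.00600 between the diets at 24 months and -0.105 from 6 to 24 months under CR. Of the 31 other named differences 4 changed sign: Ppp1r18 from the juveniles to 6 months was 0.0040 with no set term and with 5 blocks of running number, Ptpn21 from 6 to 16 months was -7.93e-05 with no filter, and between the diets at 16 months, on arrays 46 to 67 alone, Pik3c2g was 0.0275 and Mapk8 -0.0275. The cause was not tested. Leaving out 1 array took 16 of the 25 to an unadjusted p of 0.05 or above, and 3 became over 1.5 times smaller: Pip5k1c (juvenile AL male replicate 1), Prkag1 (24-month AL female replicate 5) and Ppp2r3c (6-month CR male replicate 1). After seeing the data, diet at 24 months and age under CR were also compared for each sex alone. These were contrasts in the fit to all 67 arrays, which share its estimate of the spread. In them 1 kinase passed, Map2k3 between the diets at 24 months in females alone. How many of all tested genes passed in the alternatives where Stk10 or Map2k3 did is not given here. Over the alternatives other than leaving out an array, the adjusted p for Mark3 from 16 to 24 months ranged from 0.184 to 0.920. For Map2k3 between the diets at 24 months it ranged from 0.0477 to 0.989, with the contrasts for each sex alone included. Spots near or below the mean of the array limit what 36 of the 68 genes can show. No paired analysis was made, and the labels give no replicate numbers that groups share. The running numbers cycle through the groups, and a fit blocked by those cycles was not made. The blocked fit made used 5 blocks of running number, which do not follow the cycles exactly. It called 0 members in the 9 comparisons (Map2k3 between the diets at 24 months was -0.129 there).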
